A study of Homo sapiens with 3 samples.

Results

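The neurotrophins and their receptors were examined in SK-Mel-28 cells, a human line established from a melanoma, as a group of 7 genes: the ligands BDNF, NTF3 and NTF4, the receptor tyrosine kinases NTRK2 and NTRK3, and the receptors NGFR and SORT1. Members were all probe sets whose platform annotation names one of these genes, which gave 18 probe sets naming 1 gene each out of 54613 non-control probe sets, and 4 of the 7 genes. Of these, BDNF had 2, NTRK2 had 6, NTRK3 had 9 and NGFR had 1. One further probe set names NTF4 together with another gene, so its signal could not be assigned. NTF3 and SORT1 had no probe set named for them in the annotation used here. The group was chosen by the signals of BDNF on the siRNA arrays and the scrambled array, which were known beforehand, so the members' differences are given as a description, without a test.

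The MTf siRNA cells carried the vector pSilencer 3.1-H1 neo with an insert that transcribes a hairpin siRNA against melanotransferrin (MTf, gene symbol MELTF, a membrane-anchored relative of transferrin that binds iron), and 2 arrays were hybridised with their RNA. The scrambled cells carried the same vector with a scrambled hairpin and gave 1 array. Both lines were stably transfected, both are SK-Mel-28, and the labels state no further treatment. The siRNA arrays are labelled MTf/B1 and MTf/B2 and are called siRNA arrays 1 and 2. Separate clones or cultures are not stated for them, so every p-value rests on a spread that may be technical. A further limit is that the scrambled line has no replicate.

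Neurotrophins are secreted growth factors made as precursors, which are cut by furin and other convertases to the mature dimer. BDNF and NT-4, the product of NTF4, act through the tyrosine kinase TrkB, encoded by NTRK2, and NT-3, the product of NTF3, acts mainly through TrkC, encoded by NTRK3. The p75 receptor encoded by NGFR binds all of them, and with sortilin, encoded by SORT1, it binds the uncut precursors. In the skin, melanocytes arise from the neural crest and respond to neurotrophins, and p75 is used as a marker of neural crest-like melanoma cells. In rodent neurons BDNF is transcribed from several alternative starts, some of which respond to calcium, cAMP and MAP kinase signalling.

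BDNF lies on chromosome 11 at 27654893 to 27722030 (GRCh38.p14, minus strand of the RefSeq promoter table), and that table gives 5 start windows for it, each reaching from 250 bases before to 50 after a transcript start. The sequences of 2 of them are shown because they were the windows of BDNF that held a searched motif. Those of NR4A3, VGF and FOS are shown because these immediate-early or neurotrophin-responsive genes passed the test described further on. EGR3 and FOSL1 passed it too but had 0 windows in that table, so they could not be searched. The letters searched, on both strands, were TGACGTCA (a cAMP response element), its core TGACG, which it contains, TGAGTCA (an AP-1 site), CACGTG (an E-box) and GCGGGGGCG (an EGR site). Capitals mark every match, and a match is a description of the letters only.
BDNF, chr11:27701572-27701871, minus strand: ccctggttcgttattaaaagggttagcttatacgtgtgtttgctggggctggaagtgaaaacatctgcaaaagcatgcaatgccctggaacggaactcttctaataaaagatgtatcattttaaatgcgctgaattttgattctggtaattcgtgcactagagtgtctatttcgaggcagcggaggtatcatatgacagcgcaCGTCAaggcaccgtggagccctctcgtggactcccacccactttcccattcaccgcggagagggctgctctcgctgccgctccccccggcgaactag
BDNF, chr11:27720730-27721029, minus strand: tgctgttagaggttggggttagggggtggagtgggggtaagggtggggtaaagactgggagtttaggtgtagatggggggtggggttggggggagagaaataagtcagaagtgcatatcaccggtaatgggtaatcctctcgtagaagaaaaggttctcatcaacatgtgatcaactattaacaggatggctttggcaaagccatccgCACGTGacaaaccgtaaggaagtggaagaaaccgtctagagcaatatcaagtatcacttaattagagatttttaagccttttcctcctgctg
NR4A3, chr9:99821635-99821934, plus strand: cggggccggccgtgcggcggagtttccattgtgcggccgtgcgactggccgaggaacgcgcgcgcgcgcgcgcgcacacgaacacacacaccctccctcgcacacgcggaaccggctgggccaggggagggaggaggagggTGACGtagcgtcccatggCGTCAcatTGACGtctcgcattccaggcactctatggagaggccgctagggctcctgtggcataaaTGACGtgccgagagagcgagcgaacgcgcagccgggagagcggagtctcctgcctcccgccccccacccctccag
VGF, chr7:101165520-101165819, minus strand: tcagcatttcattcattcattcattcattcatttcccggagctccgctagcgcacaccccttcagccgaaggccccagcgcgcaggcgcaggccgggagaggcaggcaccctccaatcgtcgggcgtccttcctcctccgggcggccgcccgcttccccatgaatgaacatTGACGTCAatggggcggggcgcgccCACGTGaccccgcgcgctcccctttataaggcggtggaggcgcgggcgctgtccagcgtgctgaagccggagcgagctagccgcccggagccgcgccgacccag
FOS, chr14:75278578-75278877, plus strand: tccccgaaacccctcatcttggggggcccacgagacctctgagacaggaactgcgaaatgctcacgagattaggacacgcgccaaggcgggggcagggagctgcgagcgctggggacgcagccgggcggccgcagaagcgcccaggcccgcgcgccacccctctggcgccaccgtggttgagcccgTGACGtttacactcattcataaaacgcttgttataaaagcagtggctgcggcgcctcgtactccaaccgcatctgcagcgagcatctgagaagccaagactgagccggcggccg

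The first BDNF window held the core TGACG, read on the other strand as CGTCA and beginning at position -47 from the transcript start. The second held the E-box at position -42. Across all 35116 windows in the table, 24.6% held the core and 7.26% the E-box. VGF held the complete cAMP response element, which 1.85% of all windows held, and an E-box. NR4A3 held the core 4 times and FOS once. The AP-1 letters, present in 4.95% of all windows, and the EGR letters, present in 5.07%, were in none of the 5 BDNF windows. Among the other members, 1 of 4 NTRK2 windows held the core, and none of the windows of NTRK3 (1), NTF3 (2), NTF4 (1) or SORT1 (2) held any of these letters.

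The median signal was 174.3 and 199.5 on the siRNA arrays and 160.6 on the scrambled array. The 3 probe sets for the bacterial gene trp, which human cells lack, read 7.0 to 97.2, and 97.2 is used here as the level below which a signal was not told apart from background. The targeted gene MELTF read 18968 and 18974 on the siRNA arrays against 32608 on the scrambled array in its brightest probe set, but its second brightest read 10567 and 11199 against 8284. Melanocytic markers were present as the cell line's label implies: of 9 listed, 8 had a named probe set and all 8 lay above 97.2 on every array.

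BDNF was much lower in the MTf siRNA cells. Its brightest probe set (206382_s_at) read 253.5 and 438.5 on the siRNA arrays, against 4089 on the scrambled array. Its other probe set (239367_at) read 258.0 and 244.6 on the siRNA arrays, against 4044 on the scrambled array. Both siRNA arrays lay far below the scrambled array in both probe sets, and none of the 6 signals fell under the bacterial control level.

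In the brightest probe set, the siRNA signals were 6.20% and 10.7% of the scrambled signal, or 16.1-fold and 9.33-fold lower. In the other they were 6.38% and 6.05%, or 15.7-fold and 16.5-fold lower. On the log2(signal + pseudocount) scale, with a pseudocount of 47.4, the mean difference was -3.44 ± 0.49 in the brightest and -3.78 ± 0.046 in the other (SD of the differences of the siRNA arrays, n = 2, which share the scrambled array). The differences of the probe sets were alike on siRNA array 1 and parted on siRNA array 2, where the brightest probe set was 1.73 times its own value on siRNA array 1 and the other was 0.948 times. Of all 54613 probe sets, 4 others were lower by at least as much as the brightest BDNF probe set on both siRNA arrays. For the second BDNF probe set there were 3 such others. By the mean of the differences, 16 others were at least as low as the brightest and 5 as the second. BDNF was chosen by this same contrast, so nothing is read from these ranks. In RNA from a whole culture, fewer BDNF-expressing cells and less BDNF RNA per cell cannot be told apart.

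The opposite-strand transcript BDNF-AS, which overlaps the BDNF locus, had 2 probe sets. One read 31.2 and 1.1 on the siRNA arrays against 37.5 on the scrambled array, and the other read 6.5 and 6.8 against 58.4. All 6 signals were below the bacterial control level, so no fold is given.

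**Figure D1:**
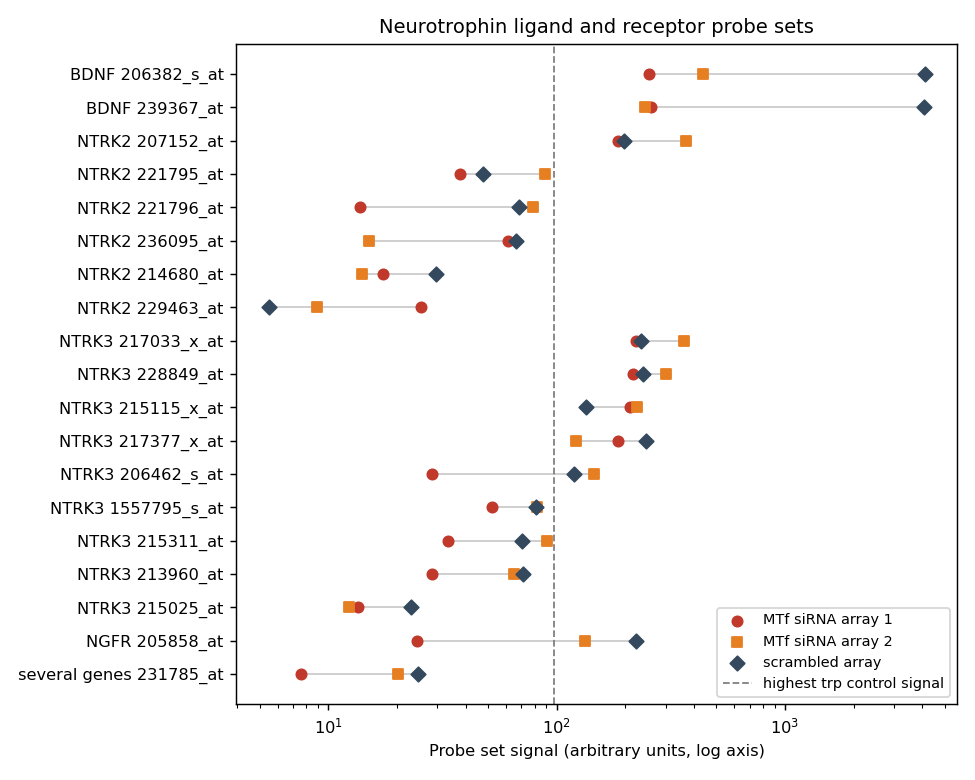
Signal of each member probe set on the 3 arrays (x axis, arbitrary units, log axis), 1 row per probe set, with the dashed line at the highest bacterial trp control signal, 97.2. The 2 BDNF rows show both siRNA arrays at 244.6 to 438.5 and the scrambled array at 4044 and 4089, whereas the receptor rows lie at or below 367.9 on every array. The lowest row is the probe set that names NTF4 together with another gene.

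The receptors of BDNF were dim on all 3 arrays. Only 1 of the 6 probe sets of NTRK2, the TrkB gene (chromosome 9, 84668522 to 85027054, GRCh38.p14), lay above the bacterial control level, and it did so on all arrays. It read 184.8 and 367.9 on the siRNA arrays, against 196.8 on the scrambled array. The scrambled value lay between the 2 siRNA values, so the groups overlapped. The other 5 NTRK2 probe sets read between 5.5 and 89.0, all under the control level on every array, and for these no direction is drawn.

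NTRK3, the TrkC gene (chromosome 15, 87859751 to 88256739), had 4 of 9 probe sets above the control level on every array, 1 on some arrays and 4 on none. Of the 4, the brightest (217033_x_at) read 222.0 and 362.6 on the siRNA arrays, against 233.4 on the scrambled array. The next (228849_at) read 216.3 and 302.3, against 238.4, so that in both the scrambled array lay between the siRNA arrays. The remaining 2 went opposite ways. The probe set 215115_x_at read 209.9 and 224.6 on the siRNA arrays against 135.1 on the scrambled array, and 217377_x_at read 185.4 and 121.3 against 246.9. The names of 3 of these 4 carry the suffix that Affymetrix gives to probe sets that may also bind other transcripts. The probe set above the level on some arrays, 206462_s_at, read 28.4 and 146.3 on the siRNA arrays and 119.1 on the scrambled array. NTRK3-AS1, an antisense transcript of NTRK3, read 117.4 and 52.7 on the siRNA arrays, against 27.8 on the scrambled array, with 1 of the 3 signals above the control level.

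NGFR, the p75 gene (chromosome 17, 49495293 to 49515008), was lower on both siRNA arrays in its 1 probe set. It read 24.5 and 133.5 on the siRNA arrays, against 222.2 on the scrambled array. The signal on siRNA array 1 was under the bacterial control level and that on siRNA array 2 above it, so no fold between them is given. The probe set shared by NTF4 and another gene read 7.6 and 20.2 on the siRNA arrays and 24.8 on the scrambled array, under that level throughout.

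Of the 18 probe sets, 7 lay above the bacterial control level on every array, 2 on some arrays and 9 on none. Of the 7, the 2 of BDNF and 1 of NTRK3 were lower on both siRNA arrays, 1 of NTRK3 was higher on both, and the other 3 went opposite ways, whereas 30.6% of all probe sets above that level throughout were lower on both and 46.0% higher. The 2 BDNF probe sets alone differed at least 2-fold on both siRNA arrays, downward, where 2.19% of all probe sets were lower by that much and 3.68% higher. Since the contrast was used in choosing the group, nothing is read from these shares. Over the 18, 7 passed the filter on low values, namely the 2 of BDNF, 1 of NTRK2 and 4 of NTRK3.

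Genes around the neurotrophins were taken from lists of ligand processing, receptor adaptors, signalling cascades, transcription regulators of BDNF, response genes and other neurotrophic factors with their receptors. These were tested by limma over all genes, each gene by its brightest probe set past the filter. Of the 109 genes measured over all these lists, 3 rose and 11 fell, with 1.5% of all 12386 genes tested rising and 1.14% falling (2.64% in all). An unadjusted p under 0.05 was found for 2837 of the 12386 genes, or 22.9%.

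Among 8 measured genes of proneurotrophin processing and sorting, 1 rose and 0 fell by limma, beside 1.5% of all genes tested rising and 1.14% falling. At an unadjusted p under 0.05 there were 4 of the 8, beside 22.9% of all genes tested. PCSK7, a proprotein convertase of the trans-Golgi network, read 575.5 and 665.9 on the siRNA arrays against 106.7 on the scrambled array (log2 difference 2.11 ± 0.35, SE; limma adjusted p = 0.0381). Its scrambled signal lay under the threshold of the filter on mean signal, which it passed through the siRNA arrays. Furin itself, FURIN, read 1031 and 1034 against 827.5 (adjusted p = 0.589). SORCS1 and SORL1, sorting receptors related to sortilin, read 523.1 and 683.1 against 180.2 (adjusted p = 0.0773) and 4232 and 7199 against 2970 (adjusted p = 0.190). PLAT encodes the tissue plasminogen activator, which turns plasminogen into plasmin, and plasmin cuts proBDNF in rodent brain. PLAT read 12425 and 14568 against 15222 (adjusted p = 0.675). The list's median log2 difference was 0.67, beside 0.097 for all genes tested.

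Of 18 measured Trk adaptors, 0 passed by limma in either direction, and the 4 at an unadjusted p under 0.05 were a share near the 22.9% of all genes. The docking gene IRS1 read 1100 and 1209 on the siRNA arrays against 2587 on the scrambled array (adjusted p = 0.0727), while log2 differences of -0.88 (adjusted p = 0.230) and -0.29 (adjusted p = 0.741) came from its dimmer probe sets. SHC4, a Shc adaptor found with melanoma and neural receptors, read 1356 and 1683 against 3287 (adjusted p = 0.0797), and a second SHC4 probe set gave nearly the same difference, at 1045 and 1132 against 2368 (adjusted p = 0.0785). PLCG1, the phospholipase that docks on activated TrkB, read 857.2 and 1218 against 1014.

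Of 13 measured p75 partners, 0 rose and 2 fell by limma, beside 1.5% of all genes tested rising and 1.14% falling. At an unadjusted p under 0.05 there were 6 of the 13 (46.2%), beside 22.9% of all genes. BEX1, which binds p75, read 895.4 and 2921 on the siRNA arrays against 23694 on the scrambled array (log2 difference -3.83 ± 0.57, SE; adjusted p = 0.0290). IRAK1, a kinase recruited to p75 with TRAF6, read 9265 and 10690 against 20625 (log2 difference -1.05 ± 0.20; adjusted p = 0.0493), while its second probe set differed by -0.36 (adjusted p = 0.534). BEX3, a further p75-binding member of the BEX family, read 32997 and 35045 against 36758 (adjusted p = 0.762). MAGED1, which binds the p75 tail, read 10801 and 18221 against 4789 (adjusted p = 0.0556).

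In the cascades downstream of Trk receptors (RAS and MAP kinases, PI3 kinase and AKT, phospholipase C and CaM kinases), 1 of 22 measured genes fell and 0 rose by limma. Of all genes tested, 1.14% fell and 1.5% rose. An unadjusted p under 0.05 was found for 9 of the 22 (40.9%), beside 22.9% of all genes. By sign, 13 of the 22 were above 0 and 9 below, with a median log2 difference of 0.10. The gene that fell was PIK3CB, a catalytic subunit of PI3 kinase. It read 6499 and 7045 on the siRNA arrays and 15492 on the scrambled array (difference -1.19 ± 0.20 on the log2 scale, SE, adjusted p = 0.0383). A dimmer PIK3CB probe set differed by -0.72 (adjusted p = 0.338). PIK3R1 of the same list read higher, at 4095 and 2656 against 1511 (limma adjusted p = 0.109).

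Among 19 measured regulators of BDNF transcription, 1 rose and 1 fell. MEF2C, a factor of the MEF2 family, which acts on the BDNF gene in rodent neurons, read 5479 and 5384 on the siRNA arrays against 15654 on the scrambled array (log2 difference -1.52 ± 0.20, SE; adjusted p = 0.0245). A second MEF2C probe set gave -1.17 (adjusted p = 0.0576) and the dimmest -0.73 (adjusted p = 0.319). TCF4, an E-protein that binds E-box sequences, read 392.3 and 499.8 against 15.0, a signal under the bacterial control level, so that it was at least 4.56-fold higher in the geometric mean of both siRNA arrays (adjusted p = 0.0284). This probe set passed the filter on mean signal only through the siRNA arrays, where it is high, so its call is not independent of that selection. Of 8 TCF4 probe sets only this one passed the filter, and of the other 7, which were dim, 6 read higher and 1 lower on both siRNA arrays. CREB1, which binds the cAMP response element, read 2970 and 2842 against 3907 (adjusted p = 0.356). REST, a repressor of neuronal genes including BDNF, read 2131 and 1996 against 2081 (adjusted p = 0.985), and BHLHE40, an E-box binding repressor, read 3353 and 3637 against 4500 (adjusted p = 0.420).

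**Figure D2:**
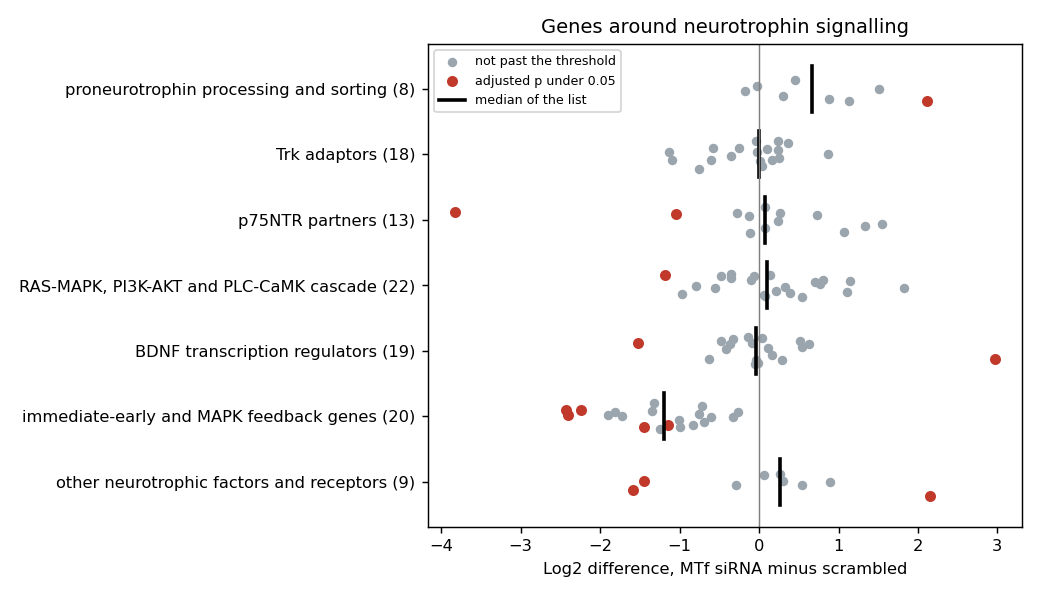
Log2 difference of MTf siRNA minus scrambled (x axis) for each measured gene of 7 lists (rows, with the number of measured genes), each point 1 gene, red where limma's adjusted p was under 0.05, black bar at the list's median. The 20 immediate-early and MAPK feedback genes all lie left of 0, with a median of -1.20, whereas the Trk adaptors have no red point.

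The immediate-early and MAPK feedback genes, which growth factor receptors induce within minutes to hours, read lower in the MTf siRNA cells in each of the 20 genes measured. Of these, 0 rose and 5 fell by limma, beside 1.5% of all genes tested rising and 1.14% falling. All 20 had a log2 difference below 0, and 16 had an unadjusted p under 0.05. Of all 12386 genes, 5263 were below 0 and 22.9% had such a p. The median log2 difference was -1.20, beside 0.097 for all genes tested. Taking each siRNA array alone, all 20 were below 0 on either, with medians of -0.87 and -1.38, but both differences use the same scrambled array. Earlier results of these data were known when the list was drawn up, so it is not independent evidence of its direction.

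EGR3, a zinc finger factor induced by MAP kinase signalling, read 916.3 and 910.5 on the siRNA arrays against 5135 on the scrambled array (log2 difference -2.43 ± 0.25, SE; adjusted p = 0.0169). FOSL1, an AP-1 subunit, read 3179 and 2387 against 13168 (-2.24 ± 0.25; adjusted p = 0.0183). The siRNA arrays were close to each other in both genes and far from the scrambled array. NR4A3, an orphan nuclear receptor whose start window is shown with those of BDNF, read 9559 and 4516 against 35171 (-2.41 ± 0.39; adjusted p = 0.0367). A second NR4A3 probe set differed by -2.12 (adjusted p = 0.0574), and a dim one by -0.41.

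VGF, a secreted precursor induced by BDNF in rodent neurons, read 2783 and 2051 on the siRNA arrays against 6589 on the scrambled array (-1.45 ± 0.26; adjusted p = 0.0463). FOS, named because it completes the calls, read 3455 and 3250 against 7493 (-1.15 ± 0.22; adjusted p = 0.0493). The values were smaller for the MAP kinase phosphatase gene DUSP6, at 10933 and 10788 against 17938 (adjusted p = 0.0943), and for JUNB, at 1193 and 1009 against 1331 (adjusted p = 0.643). Over all 37 probe sets of the list's genes past the filter, 36 were below 0, 1 was above and 9 fell by the test, which 2.09% of all 27306 tested probe sets passed in either direction.

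**Figure D3:**
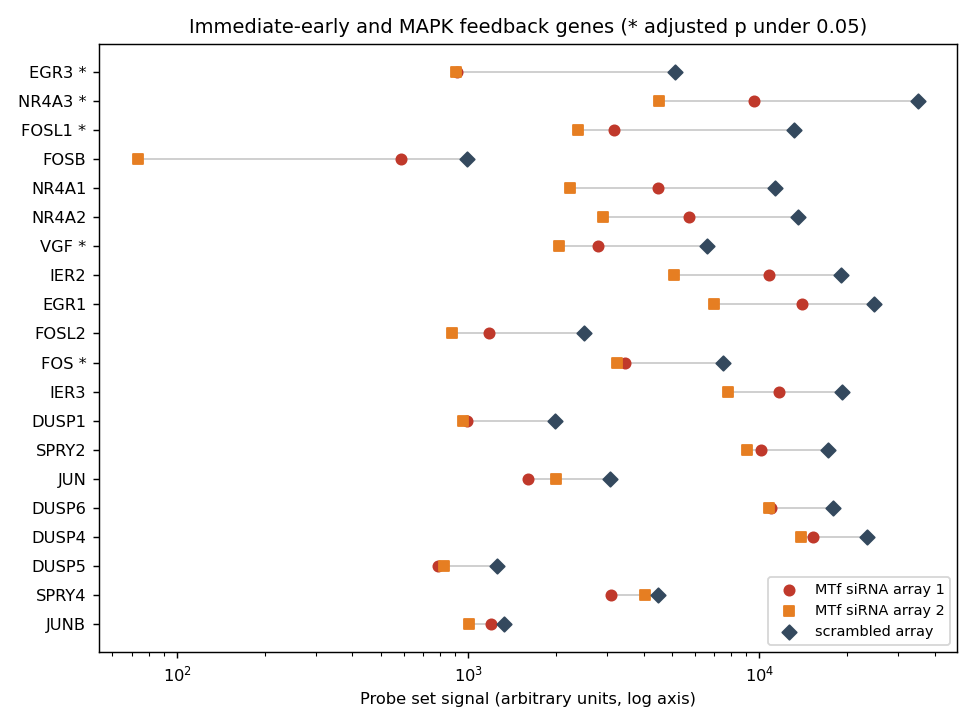
Signal (x axis, arbitrary units, log axis) of the 20 measured immediate-early and MAPK feedback genes on each array, ordered by log2 difference, with asterisks at the 5 genes past the threshold. In every row both siRNA arrays lie left of the scrambled array, and siRNA array 2 lies apart from siRNA array 1 for FOSB, at 73.4 against 589.5.

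These calls depended on the model. Without the filter, at the 75th percentile in its place, or without the trend, 0 of the measured genes in the lists passed, and centring arrays on their medians raised the count for all lists to 6 higher and 24 lower and that for the immediate-early genes to 14 lower. That centring moved the median difference of all genes to -0.073, and turned the split of calls over all genes to 323 higher and 509 lower, against 186 and 141 as reported.

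The neighbours of BDNF on its chromosome went both ways. Of the 10 measured genes on each side, 1 rose and 0 fell by limma, beside 1.5% of all genes tested rising and 1.14% falling. Of these 20 genes, 9 were above 0 and 11 below, with a median of -0.057. An unadjusted p under 0.05 was found for 8 of them, beside 22.9% of all genes. The nearest measured gene before BDNF, LIN7C, a scaffold protein gene, read 3801 and 4339 on the siRNA arrays against 5964 on the scrambled array (adjusted p = 0.230). The nearest after it, the mitotic kinesin gene KIF18A, read 797.4 and 1056 against 1297 (adjusted p = 0.419). The 1 gene past the threshold was HTATIP2, which read 15009 and 15666 against 2377 (2.67 ± 0.20 on the log2 scale, SE; adjusted p = 0.00640). The lowest was SLC17A6, a vesicular glutamate transporter gene, at 535.5 and 1425 against 4764 (adjusted p = 0.0613).

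**Figure D4:**
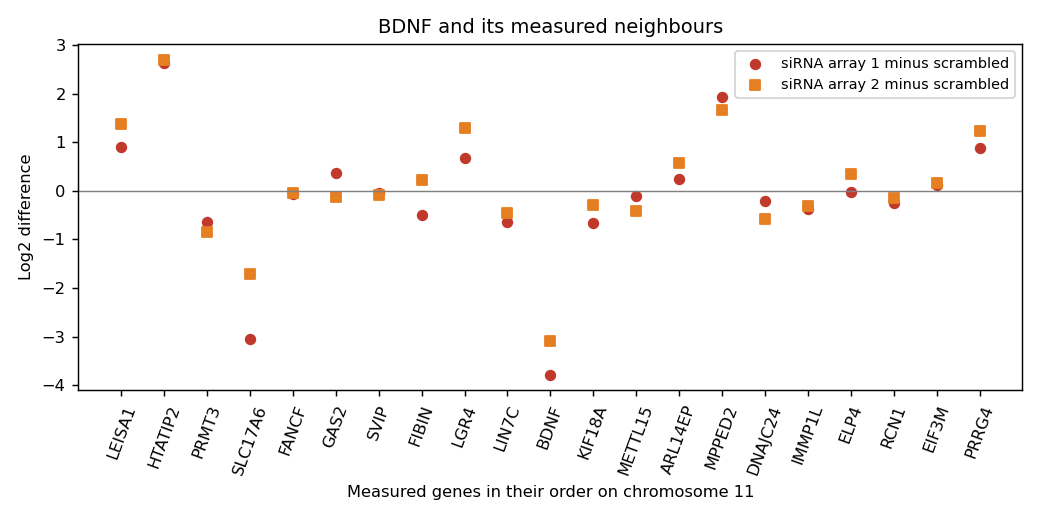
Log2 difference (y axis) of siRNA array 1 and siRNA array 2 minus the scrambled array for BDNF, in its brightest probe set, and the 10 measured genes on each side of it in their order on chromosome 11 (x axis, evenly spaced, not to distance). BDNF is the lowest gene on both arrays, and LIN7C and KIF18A beside it lie between 0 and -1.

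The genes whose pair of differences lay nearest to that of the brightest BDNF probe set, by Euclidean distance over the 2 siRNA arrays, were ZNF804A, ALDH1L2, IL24, BAAT, MARCHF4, GUCA1C, NAP1L2 and BEX1. Of these 8, the 3 above the bacterial control level on every array were IL24 (distance 0.54), MARCHF4 (0.74) and BEX1 (0.88). The other 5 had at least 1 siRNA signal under that level, so their distances rest on the pseudocount and no order is read from them. The cytokine gene IL24 read 672.5 and 710.0 on the siRNA arrays against 9250 on the scrambled array. ZNF804A, a zinc finger gene, read 54.1 and 83.7 against 1238, with both siRNA signals under the bacterial control level. Likeness over 3 arrays describes size and direction only.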

How the data were processed

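Total RNA of SK-Mel-28 cells, labelled with biotin, was hybridised to 3 Affymetrix U133 Plus 2.0 arrays of 1 colour. The deposited table holds linear intensities, 1 per probe set, made with GCOS 1.3 per the submitters' processing notes. Each array's mean after trimming 2% at each end was 1000.1, so the deposited arrays share a scale; detection calls were not used here. Per the sample labels the siRNA targets nucleotides 2048 to 2066 of the MELTF transcript and per the series' design text 2031 to 2049, a difference not settled here.

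Of 54675 probe sets 62 controls were left out. Of the rest, 41091 had 1 gene in the annotation, 1801 had several and 11721 had none, and 0 symbols changed through Entrez identifiers. Columns of other samples numbered 0. The scale of all tests was log2(signal + 47.4), the pseudocount being the 25th percentile of all signals, and such differences understate changes of dim probe sets. The 27306 probe sets above the median mean log2 value (7.74) were tested with limma 3.58.1 in R 4.3.3 (lmFit, eBayes with trend; 1 residual degree of freedom plus 6.36 from moderation; Benjamini-Hochberg, 0.05, two-sided), siRNA minus scrambled, checked on simulated data. This assumes for the scrambled array the spread of the siRNA arrays, and the number of arrays limits the precision. Folds marked at least raise each signal to 97.2, the highest trp control.

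Named genes were all member probe sets and, per list, up to 4 called genes by size or otherwise the 2 with the largest smaller difference. Others (such as FURIN, CREB1 or DUSP6) were added for their role after values were seen. The members, lists and the 97.2 level were chosen with earlier results of these data known. Alternatives were other pseudocounts, scalings, filters, no trend, the mean of probe sets, and each siRNA array left out. Promoter sequences are RefSeq's (GRCh38.p14), with windows for 6 of the 7 members.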

Additional observations from a re-analysis of the deposited data

How the results depend on the processing

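BDNF was lower under every scaling and pseudocount tried. Its second probe set, whose siRNA arrays differed little, gave -3.93 with a pseudocount of 16, -3.56 with 100, -3.83 with quantile normalization and -3.95 with arrays centred on the median. Its brightest probe set ranged from -3.78 to -3.09 with either siRNA array left out, and the second from -3.81 to -3.74. Member probe sets at least 2-fold apart numbered 2 without siRNA array 1 and 4 without siRNA array 2. With either array left out no residual degree of freedom remains, so these are values with no test. Of the values of receptor probe sets under the other scalings and pseudocounts, 52 stayed within the SD of the siRNA arrays and 12 did not. Probe sets called numbered 571 as reported, 357 with quantile normalization, 1528 with arrays centred, 1 without a filter, 9 with the 75th percentile filter and 1 without the trend. Genes called over the lists numbered 14 as reported, 30 with arrays centred, and 0 without a filter, with the 75th percentile filter or without the trend. The immediate-early calls, recounted after seeing the data, were 5 as reported, 3 with quantile normalization, 14 with arrays centred, 8 with the mean of probe sets, and 0 without a filter, with the 75th percentile filter or without the trend. The number of genes in that list below 0 stayed at 20, with 21 measured where no filter was used, or 19 of 19 with the 75th percentile filter. Of 17 called genes named by the rule, marker genes included and FOS not, 12 kept the call with quantile normalization, 12 with the mean of probe sets, 16 with a pseudocount of 100 and 0 without the filter or the trend, and none changed direction. The cause of these shifts in calls was not tested. No paired analysis was possible because the scrambled group has 1 array. Signals near the trp controls limit what can be said of NTRK2, NTRK3 and NGFR.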

Other observations

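Other neurotrophic factors and their receptors moved in either direction, with 1 of 9 measured genes rising and 2 falling by limma. Of all genes tested, 1.5% rose and 1.14% fell. An unadjusted p under 0.05 was found for 3 of the 9 (33.3%), beside 22.9% of all genes. MANF, a neurotrophic factor of the endoplasmic reticulum, read 10059 and 15626 on the siRNA arrays against 2789 on the scrambled array (log2 difference 2.15 ± 0.28, SE; limma adjusted p = 0.0248). NRG1, a ligand of ERBB receptors, read 462.1 and 461.5 against 1478 (-1.58 ± 0.29; adjusted p = 0.0470). Its other probe sets past the filter gave -1.45, -1.32 and -1.02 (adjusted p = 0.0801, 0.109 and 0.219). Dim NRG1 probe sets below the filter went opposite ways, at 100.9 and 143.5 against 86.6 and at 104.4 and 77.6 against 194.3. MET, the hepatocyte growth factor receptor, read 5509 and 4672 against 13924 (-1.45 ± 0.22; adjusted p = 0.0290), with dimmer probe sets of it at -0.81, -0.81 and -0.63 and none of these past the threshold. The ligand of MET, HGF, read 189.0 and 303.3 against 191.5.

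Of 14 neuronal markers, 6 were above the trp control level on every array, and their summed signal over the list was 14930 and 20070 on the siRNA arrays and 21150 on the scrambled array. Of 6 measured past the filter, 0 passed by limma and 1 had an unadjusted p under 0.05, the neurofilament gene NEFL (272.5 and 370.1 against 896.8; adjusted p = 0.0895), beside 22.9% of all genes tested at such a p. A second NEFL probe set past the filter read 165.4 and 307.1 against 1120.7 (adjusted p = 0.0529). SNAP25, a synaptic fusion protein gene, read 384.2 and 481.3 against 572.5 (adjusted p = 0.583). A second SNAP25 probe set past the filter read 65.9 and 260.8 against 591.0 (adjusted p = 0.168), with siRNA array 1 under the trp control level. The neurofilament gene NEFM and STMN2 read at most 27.7 and 33.8. Of the 6 measured, 4 were below 0 and 2 above. TUBB3, the brightest of the list, read 10656 and 13028 against 14180, and MAP2 1163 and 2308 against 2653. Higher on both siRNA arrays were SYT1 (213.8 and 621.5 against 209.9), GAP43 (166.4 and 168.6 against 87.7) and DCX (127.7 and 194.0 against 88.6). The scrambled signals of GAP43 and DCX were under the trp control level. Among neural crest and Schwann markers ERBB3 rose in its brightest probe set (5182 and 6798 against 2220, limma adjusted p = 0.0436). Its other probe sets past the filter gave 1.12, 1.25 and 0.60 (adjusted p = 0.109, 0.153 and 0.374). SOX10 read 13842 and 17248 against 15136. TFAP2A, a neural crest transcription factor gene, read 11340 and 11504 against 19492 (limma adjusted p = 0.0805). The summed melanocytic markers were 253500 and 278200 on the siRNA arrays and 301100 on the scrambled array. Of the 8 measured, 5 were above 0 and 3 below, with a median log2 difference of 0.040. TYRP1, a melanosomal enzyme gene, had the largest difference of the list and weighs on the sum. It fell (5022 and 12370 against 53204; log2 difference -2.75 ± 0.45, SE; limma adjusted p = 0.0374), and TYR, the tyrosinase gene, read 35193 and 37555 against 19988 (adjusted p = 0.0529). PMEL read 60940 and 65576 against 63858, MLANA 63275 and 69169 against 61769, and MITF 42992 and 34223 against 52684.

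Summed signals of the other marker lists were 8398 and 7208 against 16350 (epithelial, with ESRP1 lower at 5567 and 4656 against 14486), 5720 and 6056 against 1788 (fibroblast, with LUM higher at 4850 and 4841 against 598.6), 580.4 and 556.6 against 1327 (leukocyte) and 428.0 and 730.0 against 516.8 (endothelial). Without ESRP1 the epithelial sum was 2831 and 2552 against 1865, with the keratin gene KRT18 at 2483 and 2149 against 1308. Without LUM the fibroblast sum was 869.5 and 1215 against 1189, with the collagen gene COL1A1 at 487.9 and 565.1 against 671.9. A second, dimmer LUM probe set, which did not pass the filter, read 171.2 and 138.9 against 139.8. The leukocyte gene LCP1 read 477.8 and 384.7 against 1130 (adjusted p = 0.0804), and the endothelial gene PECAM1 284.8 and 459.5 against 228.2 (adjusted p = 0.487). In each of these 2 lists only 1 marker, LCP1 or PECAM1, lay above the trp control level on every array. The leukocyte sum was thus mostly LCP1, and PTPRC read 24.2 and 47.2 against 94.7. The endothelial gene VWF went the other way from PECAM1, at 50.2 and 72.4 against 207.0. The other PECAM1 probe sets did not pass the filter. The part of the neuronal and other marker genes in the BDNF difference was not tested.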
